A study of Mus musculus with 6 samples.

Results

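Members of the S100 calcium-binding protein family were measured in mammary tumours of 2 mouse crosses. They were taken as every probe set, the group of oligonucleotides that reads 1 transcript on an Affymetrix array, whose annotation gives exactly 1 gene symbol among 9 listed S100 genes. That rule found 11 probe sets of 8 genes (S100a1, S100a4, S100a6, S100a8, S100a9, S100a10, S100a13 and S100b) among 22626 probe sets of 12393 named genes. The listed gene S100a11 gave no value, since its probe set is annotated to 3 symbols. S100a1, S100a10 and S100b had 2 probe sets each, and probe sets of 1 gene are not replicates of each other. Suffixes such as _s_at, _x_at and _a_at in a probe set's name are Affymetrix's marks for probes that can read more than 1 transcript.

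AKR F1 tumours came from adult females of the inbred strain AKR/J crossed to PyMT mice (3 samples). DBA F1 tumours came from adult females of the inbred strain DBA/2J crossed to PyMT mice (3 samples). PyMT stands for the polyomavirus middle T antigen, a transgene that drives mammary tumours, and it was in both crosses. Each F1 animal carries 1 genome copy from the inbred strain and 1 from the PyMT parent, and the promoter of the transgene and the strain of that parent are not given in the sources used here. The study's question was how basal tumour expression compares between the genotypes. Nothing in the labels states whether the samples of a cross are from different animals, and the p-values then reflect sample-to-sample spread that may be technical.

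The values are log2 values as deposited, from 3.65 to 14.73, with array medians of 7.52 to 7.57. The SD of the values was 1.76 to 1.91 on the AKR F1 arrays and 1.98 to 2.02 on the DBA F1 arrays. A set of 15 epithelial genes averaged 10.42 to 10.53 on the AKR F1 arrays and 9.85 to 10.36 on the DBA F1 arrays, so epithelial transcripts were bright on every array. AKR F1 replicate 2, whose values had the smallest SD, and DBA F1 replicate 1, where 16 skeletal muscle genes averaged 11.17 against at most 9.41 on any other array, stood apart from the rest. S100 results that rest on them are given with and without them, and so are the medians of the gene lists they move most. These are whole tumours, in which fewer cells of a type and less RNA per cell cannot be told apart.

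S100 proteins are small proteins with paired EF-hand loops that bind calcium, which opens a surface that grips a target protein. Most act as dimers inside the cell on the cytoskeleton, membranes and annexins, and several are also released and bind receptors such as RAGE and TLR4. In tumours S100A8 and S100A9 are known mainly from neutrophils and other myeloid cells, and S100A4 from motile mesenchymal cells and metastasis of mouse mammary tumours. By the mouse assembly GRCm38.p6, S100a1, S100a13, S100a4, S100a6, S100a8 and S100a9 lie in that order in a cluster on chromosome 3, S100a11 and S100a10 lie further along it, and S100b lies on chromosome 10.

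The promoters of S100a4, S100a6, S100a8 and S100a9 are shown because S100a4, S100a6 and S100a9 did not overlap between the crosses, and because S100a8, the neighbour and partner of S100a9, did. Each window runs 5′ to 3′ from 250 bases before to 50 after the gene's start, from RefSeq on GRCm38.p6. Capitals mark matches on either strand to the C/EBP motif TTNNGNAA and to the TATA motif, spelled TATAAA, which do not overlap in these windows.
S100a4, chr3:90603520-90603819, plus strand: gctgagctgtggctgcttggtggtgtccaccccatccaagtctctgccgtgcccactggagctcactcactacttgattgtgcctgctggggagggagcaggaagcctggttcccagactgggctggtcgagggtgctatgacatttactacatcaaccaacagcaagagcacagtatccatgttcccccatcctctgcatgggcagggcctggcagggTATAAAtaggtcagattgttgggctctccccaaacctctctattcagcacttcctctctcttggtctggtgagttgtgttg
S100a6, chr3:90612644-90612943, plus strand: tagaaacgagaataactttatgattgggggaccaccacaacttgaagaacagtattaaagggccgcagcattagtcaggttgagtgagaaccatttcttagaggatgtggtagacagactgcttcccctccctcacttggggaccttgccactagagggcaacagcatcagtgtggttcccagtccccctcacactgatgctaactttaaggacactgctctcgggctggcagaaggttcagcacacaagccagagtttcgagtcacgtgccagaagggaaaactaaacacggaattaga
S100a8, chr3:90668821-90669120, plus strand: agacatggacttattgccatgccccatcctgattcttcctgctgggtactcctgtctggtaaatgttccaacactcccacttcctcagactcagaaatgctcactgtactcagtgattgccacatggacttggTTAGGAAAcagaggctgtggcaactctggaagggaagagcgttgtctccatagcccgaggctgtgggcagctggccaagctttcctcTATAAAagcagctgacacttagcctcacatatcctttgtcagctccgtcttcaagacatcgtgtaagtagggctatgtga
S100a9, chr3:90695672-90695971, minus strand: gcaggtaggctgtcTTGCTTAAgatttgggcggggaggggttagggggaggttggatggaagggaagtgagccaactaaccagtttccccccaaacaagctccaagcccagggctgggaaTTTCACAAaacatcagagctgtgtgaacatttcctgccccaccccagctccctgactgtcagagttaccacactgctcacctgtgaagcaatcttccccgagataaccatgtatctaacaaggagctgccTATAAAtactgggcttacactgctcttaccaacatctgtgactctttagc
The S100a4 window held a TATA match beginning 31 bases before the start, and the S100a8 window a TATA match beginning 30 bases before it. In the S100a9 window the TATA match began at the annotated start itself. C/EBP matches began 117 bases before the S100a8 start, and 236 and 130 bases before the S100a9 start. Of 32851 promoter windows of this length, 40.7% held a C/EBP match and 13.6% a TATA match. Among the 9 listed genes 8 had a window, of which 2 held a C/EBP match and 3 a TATA match. S100a11 was among these 8, while S100a10, which did not overlap between the crosses either, had no window at hand. The windows of S100a1, S100a6, S100a11, S100a13 and S100b held neither motif's letters, and those of S100a1 and S100a13, on opposite strands, overlap by 204 bases.

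All 11 S100 probe sets had a lower mean in AKR F1 than in DBA F1 tumours in the values as deposited, whereas 45.4% of all probe sets did. The share rose with brightness: above the median level it was 62.9% of all probe sets, beside all 7 S100 probe sets there. With each gene read at its brightest probe set, all 8 of these S100 genes had the lower mean, beside 45.2% of all genes. The 8 were chosen with earlier results of these data known and are not the whole family. Outside them, S100a3 (0.20), S100a5 (0.11), S100a14 (0.26) and S100g (0.14) had higher AKR F1 means, and S100a16 was at -0.01. After quantile or cyclic loess normalization 10 of 11 S100 probe sets had a lower AKR F1 mean, S100a13 being the exception. The median log2 difference, AKR F1 minus DBA F1, was -0.44 over the S100 probe sets and 0.05 over all probe sets. No S100 probe set passed limma at an adjusted p of 0.05, as 0.0972% of all probe sets did, so no S100 gene is called different between the crosses. With arrays weighted by their fit S100a4, S100a6 and S100a9 passed (limma adjusted p = 0.0453, 0.048 and 0.0471), a setting in which 3712 probe sets passed in all. At an unadjusted p under 0.05 there were 6 of 11, all lower in AKR F1 tumours, against 13.2% of all probe sets in that direction. They were those of S100a9, S100a6 and S100a4, both of S100a10 and 1 of S100b. By genes at their brightest probe set there were 4 of 8, against 12.6% of all genes in that direction. With only probe sets above the median level fitted there were 3 of 7, against 19.3% of all probe sets there. In 5 of 11 the crosses did not overlap, with every AKR F1 array below every DBA F1 array, as in 15.8% of all probe sets.

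**Figure D1:**
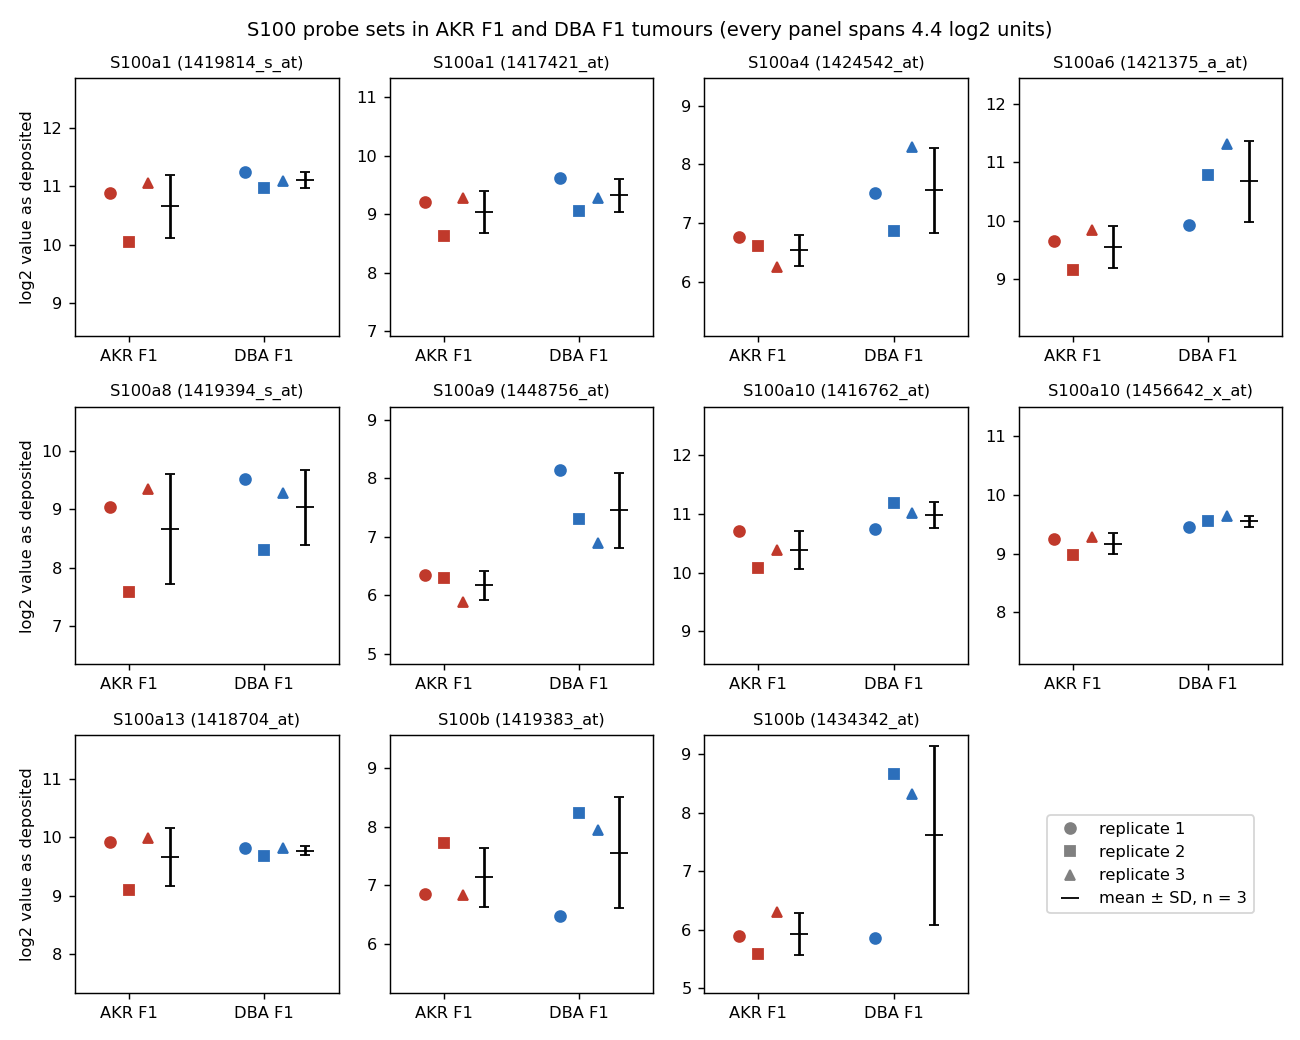
Log2 values as deposited (vertical axis) of the 11 S100 probe sets on the 3 AKR F1 arrays (red, left) and the 3 DBA F1 arrays (blue, right), with the mean and SD of each cross in black (n = 3) and every panel spanning the same number of log2 units. S100a9, S100a4, S100a6 and both probe sets of S100a10 show no overlap between crosses, and S100b is high on DBA F1 replicates 2 and 3.

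Those counts moved with single arrays. Without AKR F1 replicate 2, 9 of 11 probe sets had a lower mean in AKR F1 tumours and 2 were under an unadjusted p of 0.05. Without DBA F1 replicate 1 all 11 were lower and 7 were under it. Without both of these arrays, a setting chosen after seeing the data, 8 were lower and 6 were under it. Leaving out DBA F1 replicate 3 left 1 under an unadjusted p of 0.05, leaving out AKR F1 replicate 3 or DBA F1 replicate 2 left 3, and leaving out AKR F1 replicate 1 left 5. With single arrays left out, the share of all probe sets under that p and lower in AKR F1 tumours ran from 7.08% to 14.3%. The count of S100 probe sets that did not overlap was 5 to 7 in these settings, while with fewer arrays the share of all probe sets that did not overlap in that direction was 17.1% to 23.7%.

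**Figure D2:**
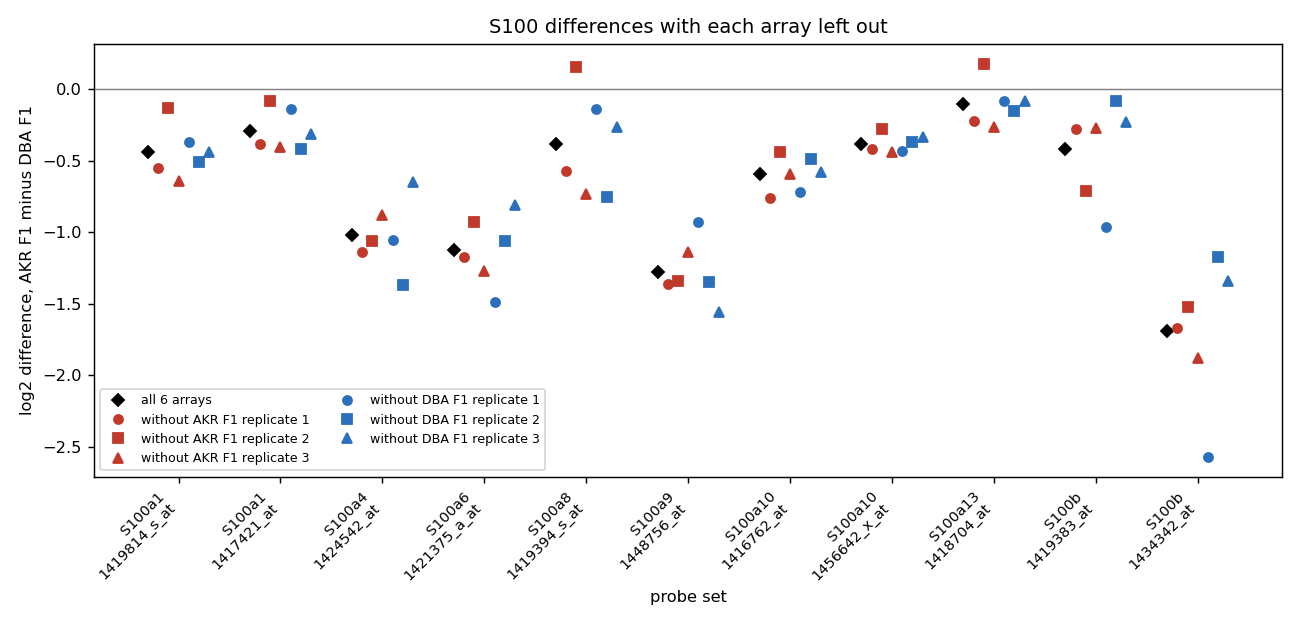
Log2 difference, AKR F1 minus DBA F1 (vertical axis), of each S100 probe set (horizontal axis) with all 6 arrays (black) and with each AKR F1 array (red) or DBA F1 array (blue) left out. The differences of S100a8 and S100a13 are above 0 without AKR F1 replicate 2, at 0.16 and 0.18, and the lower S100b value is -2.57 without DBA F1 replicate 1.

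S100a9 differed most clearly from its spread among the S100 genes, by unadjusted p. The protein pairs with S100a8 to form calprotectin, which binds zinc and calcium and is released by neutrophils as a danger signal. S100a9 read 6.34, 6.29 and 5.89 on the AKR F1 arrays, against 8.15, 7.31 and 6.90 on the DBA F1 arrays. All AKR F1 values were below all DBA F1 values, with a gap of 0.55, and DBA F1 replicate 1 was the highest. The mean was 6.17 ± 0.25 for AKR F1 and 7.45 ± 0.64 for DBA F1 (SD, n = 3 each), a log2 difference of -1.28 (SE 0.32, 95% interval -2.04 to -0.52). This is 2.43-fold lower in AKR F1 tumours, with a limma adjusted p of 0.107. Of all probe sets, 5.13% had an unadjusted p at or below that of S100a9. The S100a9 difference was -0.93 without DBA F1 replicate 1 and -1.56 without DBA F1 replicate 3, and its unadjusted p stayed at or below 0.0208 under all 12 alternatives that gave it a value.

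S100a8, the partner of S100a9, varied more within crosses than between them. It read 9.04, 7.58 and 9.34 on the AKR F1 arrays, against 9.51, 8.30 and 9.28 on the DBA F1 arrays. Replicate 2 was the lowest array of both crosses, and the crosses overlapped. The S100a8 mean was 8.65 ± 0.94 for AKR F1 and 9.03 ± 0.64 for DBA F1 (SD, n = 3 each), a log2 difference of -0.38 with a 95% interval of -1.60 to 0.84 (limma adjusted p = 0.617). That interval holds both no difference and one as large as that of S100a9. The sign turned to 0.16 without AKR F1 replicate 2 and to 0.40 without that array and DBA F1 replicate 1. Whether S100a8 and S100a9 differ from each other in their response to the cross was not tested.

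S100a4, also called metastasin, binds non-muscle myosin IIA and is a marker of fibroblasts and motile cells. It read 6.76, 6.60 and 6.24 on the AKR F1 arrays, against 7.51, 6.86 and 8.30 on the DBA F1 arrays. The crosses did not overlap, but the gap between the highest AKR F1 and the lowest DBA F1 array was 0.10. The S100a4 mean was 6.53 ± 0.27 for AKR F1 and 7.56 ± 0.72 for DBA F1 (SD, n = 3 each), a log2 difference of -1.02 (SE 0.356, 95% interval -1.87 to -0.18) or 2.03-fold lower in AKR F1 tumours. The limma adjusted p was 0.154. The S100a4 difference was -0.65 without DBA F1 replicate 3, the array on which it was highest.

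S100a6, or calcyclin, binds annexins and the ubiquitin ligase adaptor encoded by Cacybp. It read 9.65, 9.16 and 9.85 on the AKR F1 arrays, against 9.93, 10.79 and 11.31 on the DBA F1 arrays. DBA F1 replicate 1 lay just above the AKR F1 arrays, by 0.08, and DBA F1 replicates 2 and 3 lay well above all others. Its mean was 9.55 ± 0.35 for AKR F1 and 10.68 ± 0.69 for DBA F1 (SD, n = 3 each), 2.18-fold lower in AKR F1 tumours (log2 difference -1.12, SE 0.359, limma adjusted p = 0.138). Without DBA F1 replicate 1 the S100a6 difference was -1.49 (limma adjusted p = 0.0621), and without AKR F1 replicate 2 as well it was -1.30 and passed (limma adjusted p = 0.0439). With only AKR F1 replicate 2 left out the S100a6 difference was -0.93 (limma adjusted p = 0.236).

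S100a10, known as p11, is the S100 protein that has lost calcium binding and stays in a complex with annexin A2, where it can bind plasminogen and its activator. Its brighter probe set read 10.71, 10.07 and 10.38 on the AKR F1 arrays, against 10.74, 11.19 and 11.01 on the DBA F1 arrays. The dimmer S100a10 probe set read 9.25, 8.97 and 9.29 on the AKR F1 arrays, against 9.45, 9.56 and 9.64 on the DBA F1 arrays. Neither overlapped between crosses, with gaps of 0.03 and 0.16. The log2 differences were -0.59 (SE 0.201, limma adjusted p = 0.148) and -0.38 (SE 0.134, limma adjusted p = 0.156), so the probe sets of S100a10 went the same way at 1.51-fold and 1.30-fold lower in AKR F1 tumours. All probe sets of the same brightness had a median of -0.21, and after quantile normalization the S100a10 differences were -0.35 and -0.20. Without AKR F1 replicate 2, the lowest array at both probe sets, they were -0.44 and -0.28 (limma unadjusted p = 0.0529 and 0.0364).

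S100a1, which regulates calcium pumps and channels of striated muscle, did not separate the crosses. Its brighter probe set read 10.88, 10.05 and 11.05 on the AKR F1 arrays, against 11.24, 10.97 and 11.10 on the DBA F1 arrays. The dimmer probe set of S100a1 read 9.21, 8.62 and 9.27 on the AKR F1 arrays, against 9.62, 9.06 and 9.28 on the DBA F1 arrays. AKR F1 replicate 2 was the lowest array at both, and the rest lay close together. The S100a1 differences were -0.44 (95% interval -1.07 to 0.19, limma adjusted p = 0.295) and -0.29 (95% interval -0.82 to 0.25, limma adjusted p = 0.396). Without AKR F1 replicate 2 they were -0.13 and -0.08. The skeletal muscle gene mean was 8.35, 8.13 and 9.41 on the AKR F1 arrays and 11.17, 6.38 and 6.31 on the DBA F1 arrays. DBA F1 replicate 1 was the highest array for that mean and at both S100a1 probe sets. The lowest was DBA F1 replicate 3 for the muscle mean and AKR F1 replicate 2 for S100a1, whose values ranged over at most 1.19 log2 units. The part of muscle in the S100a1 values was not tested.

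S100a13, which takes part in the release of FGF1 and interleukin 1 alpha without a signal peptide, had the smallest difference. It read 9.92, 9.10 and 9.98 on the AKR F1 arrays, against 9.82, 9.68 and 9.81 on the DBA F1 arrays. Apart from AKR F1 replicate 2 these values were nearly level. The S100a13 difference was -0.10 with a 95% interval of -0.67 to 0.47 (limma adjusted p = 0.787), and 0.18 without AKR F1 replicate 2.

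S100b, a marker of Schwann cells, astrocytes, adipocytes and chondrocytes, ranged over 3.08 log2 units at its dimmer probe set, the widest range of the 11, and its 2 probe sets disagreed in size. The brighter S100b probe set read 6.85, 7.72 and 6.84 on the AKR F1 arrays, against 6.48, 8.24 and 7.95 on the DBA F1 arrays. At the dimmer one S100b read 5.89, 5.58 and 6.30 on the AKR F1 arrays, against 5.86, 8.66 and 8.32 on the DBA F1 arrays. Both were high on DBA F1 replicates 2 and 3 and low on DBA F1 replicate 1, so the crosses overlapped, while AKR F1 replicate 2 was the highest AKR F1 array at the brighter and the lowest at the dimmer probe set. The differences were -0.42 (SE 0.483, 95% interval -1.57 to 0.73, limma adjusted p = 0.555) and -1.69 (SE 0.70, 95% interval -3.35 to -0.03, limma adjusted p = 0.188), and -1.06 for their mean. Without DBA F1 replicate 1 the dimmer probe set of S100b passed, at -2.57 (limma adjusted p = 0.0137), and the brighter one was at -0.96 (limma adjusted p = 0.175). Without AKR F1 replicate 2 as well, both passed, at -2.39 (limma adjusted p = 0.01) and -1.25 (limma adjusted p = 0.0255).

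**Figure D3:**
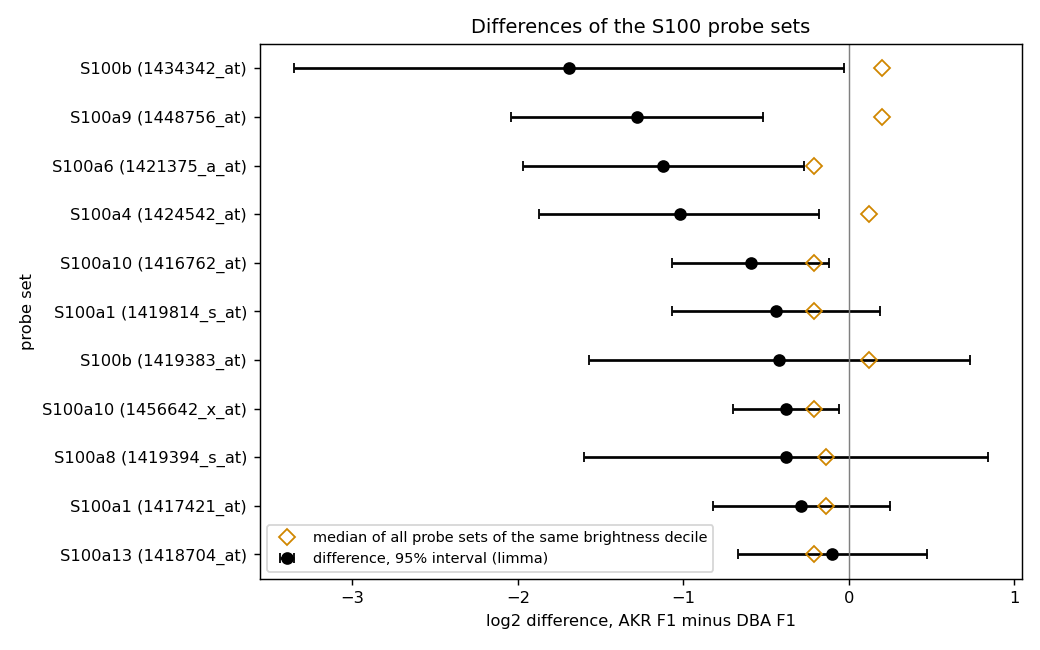
Log2 difference, AKR F1 minus DBA F1 (horizontal axis), of each S100 probe set (vertical axis) with its 95% interval from limma (n = 3 arrays per cross), and as open diamonds the median difference of all probe sets in the same decile of mean level. The intervals of S100a9, S100a6, S100a4, both S100a10 probe sets and the dimmer S100b probe set lie below 0, and none of the 11 passed an adjusted p of 0.05.

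The difference between crosses moved with brightness over the whole array, and this touches the brighter S100 genes. Its median over all probe sets was 0.23 in decile 3 of mean level and -0.21 in decile 10. S100a6, S100a1 and S100a10 at their brightest probe sets lie in decile 10, and S100a9 lies in decile 4, where the median was 0.20. Relative to the median of its decile, S100a9 was at -1.48, S100a4 at -1.14, S100a6 at -0.91, S100a1 at -0.23 and S100a13 at 0.11. After cyclic loess normalization, which removes such a trend, the difference was -1.46 for S100a9, -1.17 for S100a4, -0.91 for S100a6, -0.26 for S100a8 and 0.09 for S100a13.

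**Figure D4:**
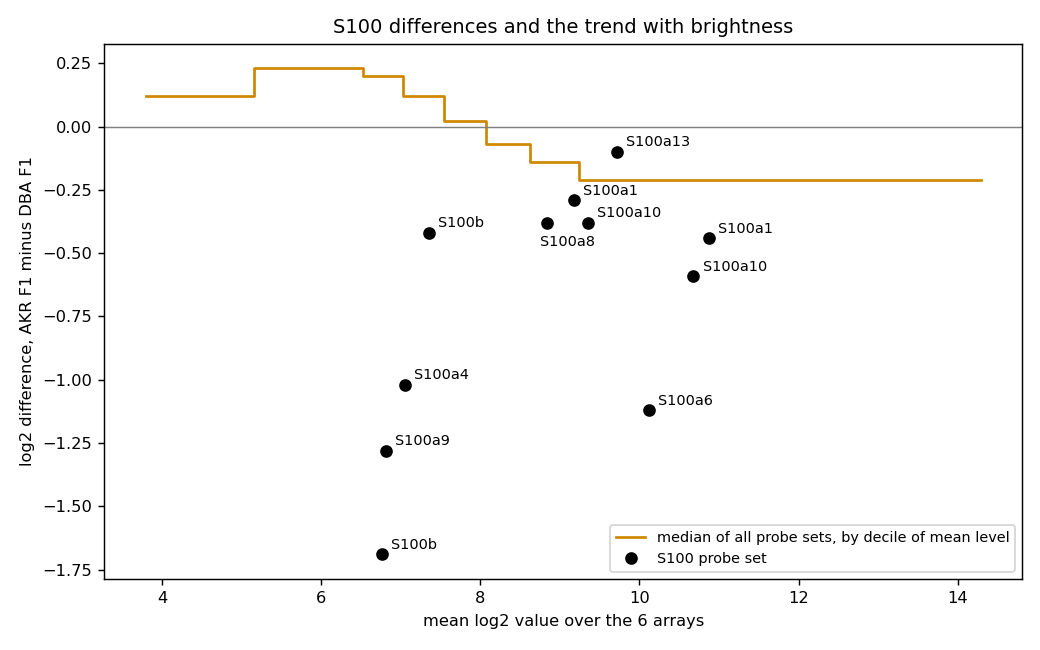
Log2 difference, AKR F1 minus DBA F1 (vertical axis), of the 11 S100 probe sets (black) against their mean log2 value over the 6 arrays (horizontal axis), with the median difference of all probe sets in each decile of mean level as a stepped line. S100a9, S100a4 and the dimmer S100b probe set lie below a line that is above 0 there, while S100a13 lies above its line.

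Targets and receptors of S100 proteins had lower AKR F1 means in 21 of 30 measured genes (34 listed), with a median of -0.39, beside 45.2% of all genes and a median of 0.05. None passed limma over all probe sets, and 9 were under an unadjusted p of 0.05, as were 25.2% of all genes at their brightest probe set. Of these 9, 8 were lower in AKR F1 tumours, against 12.6% of all genes in that direction. Many of the partners are bright, with 17 of 30 in deciles 9 and 10, where all probe sets had medians of -0.21. Above the median level 17 of 20 partners lay lower in AKR F1 tumours, beside 62.9% of all probe sets there. The median of the partners was -0.15 after quantile normalization, -0.19 after cyclic loess normalization and -0.24 without AKR F1 replicate 2. Myh9, the myosin heavy chain that S100a4 binds, read 11.30, 11.03 and 11.80 on the AKR F1 arrays, against 11.87, 12.41 and 12.46 on the DBA F1 arrays (-0.87, limma adjusted p = 0.122). Its crosses did not overlap. Cacybp, the S100a6-binding protein gene, differed by -0.39 (limma adjusted p = 0.159) and the ubiquitin ligase adaptor Sugt1, another S100a6 partner, by -0.54 (limma adjusted p = 0.088). Anxa2, the annexin that holds S100a10, read 12.26, 12.08 and 12.14 on the AKR F1 arrays, against 12.11, 12.96 and 12.69 on the DBA F1 arrays. Like S100a6, Anxa2 was high on DBA F1 replicates 2 and 3 and near the AKR F1 values on DBA F1 replicate 1, and its difference was -0.43 (limma adjusted p = 0.245). Anxa5, another annexin, differed by -0.62 (limma adjusted p = 0.0924), Anxa1 by -0.85 (limma adjusted p = 0.194), and the tropomyosin gene Tpm1 by -1.12 (limma adjusted p = 0.126). Plat, the plasminogen activator that S100a10 complexes bind, differed by -0.67 (limma adjusted p = 0.16).

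No receptor gene passed limma. Ager, which encodes RAGE, read 6.86, 7.68 and 6.54 on the AKR F1 arrays, against 6.42, 6.61 and 6.39 on the DBA F1 arrays (0.55, limma adjusted p = 0.245). Tlr4 differed by 0.15 (limma adjusted p = 0.526) and Bsg, a membrane receptor reported to bind S100A9 in human cells, by -0.12 (limma adjusted p = 0.816). Cd36, a fatty acid transporter that takes up arachidonic acid carried by S100A8 and S100A9, read 9.33 on DBA F1 replicate 1 and 5.74 to 7.06 on all other arrays (-0.63, limma adjusted p = 0.635).

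Other S100 genes and fused S100 genes were mostly dim and close to level between the crosses. Of 10 measured genes in that list (15 listed) 2 lay lower in AKR F1 tumours, the median was 0.10, and none was under an unadjusted p of 0.05 by limma. In 8 of these 10 the probe set lies in deciles 1 to 5, where all probe sets had medians of 0.12 to 0.23. After cyclic loess normalization the median was -0.02, and 7 of 10 had the lower mean in AKR F1 tumours. S100a5, which lies between S100a4 and S100a6 on chromosome 3, read 6.44, 6.49 and 6.32 on the AKR F1 arrays, against 6.33, 6.33 and 6.26 on the DBA F1 arrays. Its level hardly moved while those of its neighbours ranged over more than 2 log2 units. Whether these dim S100a5 values lie above background is not known without detection calls. S100a3, the gene of a cysteine-rich S100 protein of hair, differed by 0.20, the epidermal fused S100 gene Rptn by 0.19, and S100pbp, whose product binds an S100 protein in human cells, by -0.45. S100a14 (0.26), S100g (0.14) and S100a16 (-0.01) were named after their values were seen.

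Genes listed as linked to the induction of S100a8 and S100a9, which need not all be inducers, had a median of 0.01. Of 14 measured (16 listed), 7 had lower AKR F1 means, and none passed. Cebpd, a C/EBP factor, read 9.03, 8.16 and 9.34 on the AKR F1 arrays, against 9.28, 10.37 and 10.11 on the DBA F1 arrays (-1.07, limma adjusted p = 0.157). It was lowest of the DBA F1 arrays on replicate 1, where S100a9 was highest. The cytokine genes Il1b (-0.49) and Tnf (0.28) and the myeloid factor gene Spi1 (0.30) did not pass.

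Most neutrophil markers had a higher AKR F1 mean, unlike S100a9, but the largest difference of the list, at Ptx3, had the sign of the S100a9 difference. Of 13 measured (18 listed), 3 lay lower in AKR F1 tumours and the median was 0.35, 5 were under an unadjusted p of 0.05, all higher in AKR F1 tumours as were 12.6% of all genes, and none passed limma. The 3 that lay lower, named after their values were seen, were Ptx3 (-1.92, limma adjusted p = 0.196), Prtn3 (-0.16) and Chil3 (-0.02). Ptx3 read 8.13, 6.95 and 8.36 on the AKR F1 arrays, against 7.79, 10.53 and 10.88 on the DBA F1 arrays. Its crosses overlapped, and it was lowest of the DBA F1 arrays on replicate 1, where S100a9 was highest. With single arrays left out the median ran from 0.22 to 0.51. The array mean of the list was 7.48 to 7.60 in AKR F1 and 7.35 to 7.49 in DBA F1 tumours. Cxcr2, the neutrophil chemokine receptor, differed by 0.56, Mmp8 by 0.53, Mpo by 0.49 and Mmp9 by 0.36, all at levels of 6.10 to 7.44, where probe sets in general had medians above 0. Without detection calls it is not known whether these dim values lie above background. Macrophage markers had lower AKR F1 means in 11 of 15 measured genes (16 listed, median -0.22), and their array mean was 8.73, 8.08 and 8.56 in AKR F1 and 8.92, 8.31 and 8.88 in DBA F1 tumours. On both crosses replicate 2 was lowest, as it was for S100a8. This was not particular to macrophage markers, since the mean of 20 fibroblast and mesenchymal genes was lowest there too, at 8.07 and 8.62. Cd68 (-0.47), the complement genes C1qa (0.54) and C1qb (-0.58) and the mannose receptor gene Mrc1 (-1.11) did not pass. The part of myeloid cell content in the S100a8 and S100a9 values was not tested.

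**Figure D5:**
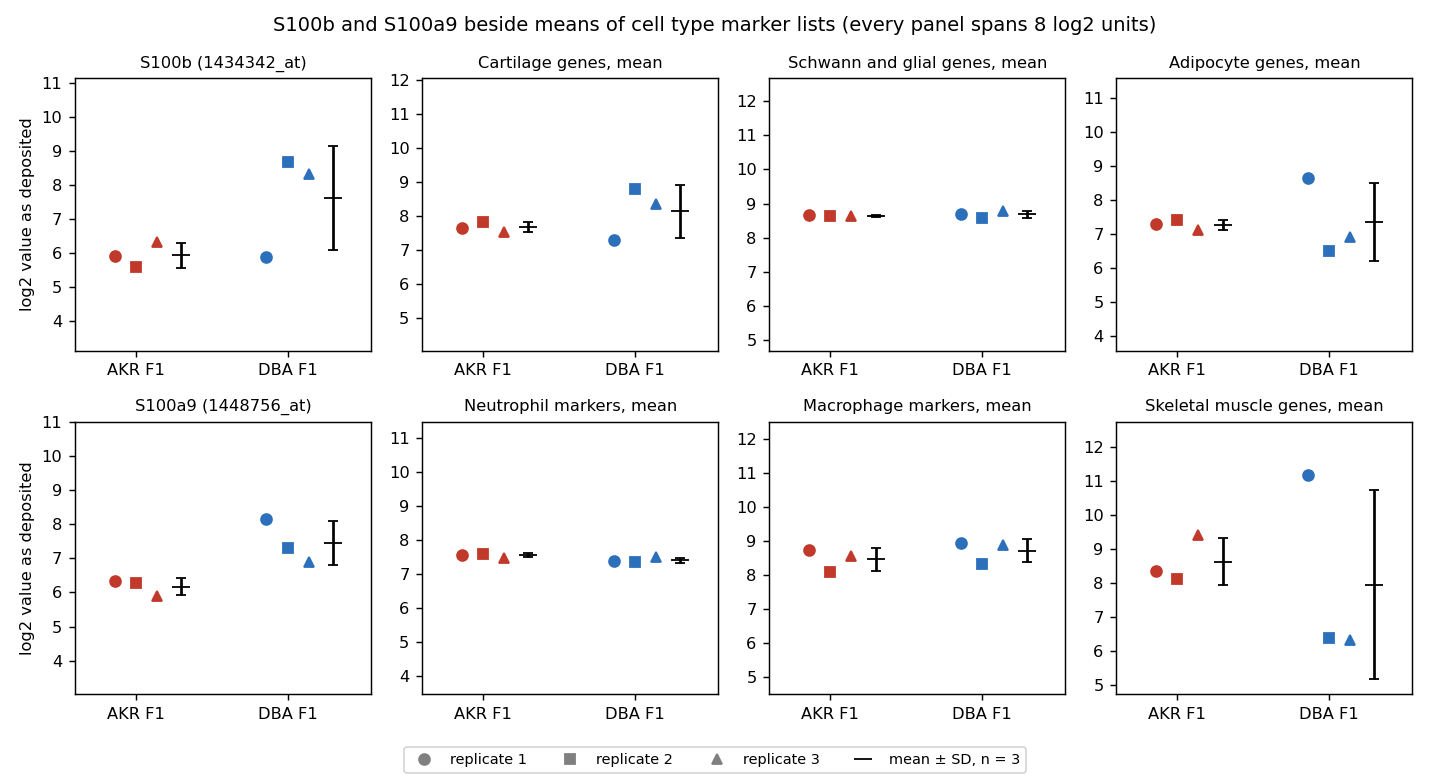
Log2 values as deposited (vertical axes) of S100b (dimmer probe set) and S100a9, beside array means of marker lists, on the 3 AKR F1 arrays (red, left) and the 3 DBA F1 arrays (blue, right), with the mean and SD of each cross (n = 3). The cartilage mean is highest on DBA F1 replicates 2 and 3, as S100b is, and the adipocyte and muscle means are highest on DBA F1 replicate 1, as S100a9 is.

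DBA F1 replicate 1, highest for S100a9, was also highest for the means of the fat and muscle lists. The mean of 9 adipocyte genes (12 listed) was 7.30, 7.41 and 7.13 on the AKR F1 arrays and 8.65, 6.51 and 6.93 on the DBA F1 arrays. Fabp4, a fatty acid carrier of adipocytes, read 11.70 on DBA F1 replicate 1 and at most 8.83 elsewhere, and Adipoq read 10.57 there and at most 7.13 elsewhere. Of the adipocyte genes 4 lay lower in AKR F1 tumours (median 0.03), with Lipe at 0.80 and Lep at 0.35. Lipe, Lep and Pparg, the last named after its values were seen, were highest on AKR F1 replicate 2. They read 8.27, 5.98 and 7.49 there, against 7.63, 5.52 and 7.41 on DBA F1 replicate 1. Of the 16 muscle genes, all measured, 3 lay lower in AKR F1 tumours (median 0.64), with Acta1 at 2.49, Tnnc2 at 1.81, Mb at -0.74 and Tnnc1 at -0.34, and none was under an unadjusted p of 0.05 by limma. Without that array the median was 2.48 over the muscle genes, of which 0 of 16 lay lower in AKR F1 tumours, and 0.54 over the adipocyte genes, of which 0 of 9 did. Without DBA F1 replicate 1 the S100a9 difference was -0.93 and its crosses did not overlap, as in 21.2% of all probe sets in that direction. The part of fat or muscle in the S100a9 values was not tested.

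S100b was high where the mean of the cartilage list was high, as were some mesenchymal genes. The mean of 13 cartilage genes, all measured, was 7.67, 7.82 and 7.53 on the AKR F1 arrays and 7.29, 8.81 and 8.35 on the DBA F1 arrays. Comp, a cartilage matrix protein gene, read 7.39, 7.77 and 7.24 on the AKR F1 arrays, against 7.20, 10.55 and 10.08 on the DBA F1 arrays. That is the same order of DBA F1 arrays as for S100b. It was not particular to cartilage genes. On the DBA F1 arrays the mesenchymal genes Prrx1 (6.88, 8.96 and 8.43) and Acta2 (10.37, 13.26 and 12.13) had it too. The mean of the fibroblast and mesenchymal list, at 8.93, 8.62 and 9.20 on the DBA F1 arrays, did not. The AKR F1 mean was the lower one in 8 of the cartilage genes (median -0.18), including Col9a1 (-0.78), and none passed. Col9a2 (0.82) and Matn3 (0.47) lay higher, with every DBA F1 array below every AKR F1 array. The cartilage median was -0.43 without DBA F1 replicate 1 and 0.05 without DBA F1 replicate 2. The Schwann cell and glial list, with 10 of 14 measured, was level at 8.62 to 8.66 on the AKR F1 arrays and 8.58 to 8.77 on the DBA F1 arrays, with 5 lower in AKR F1 tumours and a median of 0.03. Within it Pmp22, a growth arrest and myelin gene, differed by -1.15 (limma adjusted p = 0.0747), Sox10 by 0.51, L1cam by 0.43 and Mbp by 0.32. The part of cartilage-like, mesenchymal or glial cells in the S100b values was not tested.

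S100a4 and S100a6 were measured beside mesenchymal genes. Of 20 fibroblast and mesenchymal genes, all measured, 14 lay lower in AKR F1 tumours (median -0.11, mean -0.40), 6 of them under an unadjusted p of 0.05, against 12.6% of all genes in that direction, and none passed limma. The median was -0.41 without DBA F1 replicate 2, and 10 of 20 lay lower without AKR F1 replicate 2. Vim, or vimentin, read 11.12, 9.97 and 10.36 on the AKR F1 arrays, against 11.66, 12.73 and 12.49 on the DBA F1 arrays (-1.81, limma adjusted p = 0.0913). Vim was highest on DBA F1 replicates 2 and 3, as was S100a6, whereas S100a4 was lowest of the DBA F1 arrays on replicate 2. The actin gene Acta2 (-2.06), Prrx1 (-1.76) and Postn (-0.96) lay lower in AKR F1 tumours and did not pass. The fibrillar collagen genes Col1a1 (1.09), Col1a2 (0.76) and Col3a1 (0.43), named after their values were seen, had higher AKR F1 means and did not pass. Of the 15 epithelial genes, 6 had a lower AKR F1 mean (median 0.17). Cldn4 passed at 1.96 (limma adjusted p = 0.0392), higher in AKR F1 tumours, and the claudin gene Cldn3 (at least 12.35 in AKR F1 and at most 11.87 in DBA F1 tumours), Elf3 (0.57) and Cldn7 (0.49) did not. The part of tissue composition in the S100a4 and S100a6 values was not tested.

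The genes most like S100a9, S100a6 and S100a4, each gene read at its brightest probe set, were found by the mean absolute difference of log2 profiles over the 6 arrays, each centred on its own mean. For S100a6 they were the metalloreductase gene Steap4 (0.08), the phospholipase gene Plce1 (0.10) and Ramp1 (0.10), a partner of the calcitonin receptor-like receptor. Steap4 read 9.92, 9.51 and 10.07 on the AKR F1 arrays, against 10.22, 11.27 and 11.47 on the DBA F1 arrays, which is the order of S100a6 itself. For S100a4 they were the SNARE gene Snap23 (0.20), the small GTPase gene Rasd1 (0.21) and the leukocyte surface gene Cd52 (0.22). Cd52 read 8.45, 8.22 and 8.40 on the AKR F1 arrays, against 9.14, 8.60 and 9.35 on the DBA F1 arrays. For S100a9 they were the cysteine dioxygenase gene Cdo1 (0.19), the muscle deaminase family gene Apobec2 (0.25) and the scavenger receptor gene Stab2 (0.27). Apobec2 read 7.04, 7.63 and 7.32 on the AKR F1 arrays, against 9.39, 8.43 and 8.70 on the DBA F1 arrays, so DBA F1 replicate 1 was again the highest. These were the closest of 12393 genes over 6 arrays, and the closeness is a description only.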

How the data were processed

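Total RNA of snap-frozen tumours was extracted with Trizol and labelled with biotin for Affymetrix arrays, per the labels' protocols. The deposited table holds log2 values of 22690 probe sets on 6 arrays. The submitters' processing notes list MAS5 and RMA, without saying which of them produced the table, and its log2 unit was inferred from the range of the deposited values. The background step is not stated in the sources at hand. The number of arrays limits the precision, and low values were used without detection calls.

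Groups came from the source names in the labels, and replicate numbers only name samples. The 64 control probe sets were left out, and 20380 probe sets had 1 gene symbol in the platform annotation, 691 several and 1555 none. A limma linear model (version 3.58.1, R 4.3.3) with a moderated two-sided test gave p-values, adjusted by Benjamini-Hochberg over 22626 probe sets with a threshold of 0.05. It was also run on simulated data, where recovery was required only for log2 changes larger than any S100 difference. Smaller changes were simulated too, but no recovery was required of them and their recovery is not given here. How often differences of the S100 size would be missed is therefore not stated. Differences are AKR F1 minus DBA F1, and ± is the SD over 3 arrays. In the 11 gene lists each gene was read at its brightest probe set, and lists were described without a test. The text names all S100 probe sets, the 4 genes of each list with the smallest p, 11 preset partner genes where measured, and the 3 genes most like each of the 3 S100 genes with the widest range over arrays at their brightest probe set. Members, lists and motifs were chosen with earlier results of these data known. Alternatives were quantile, cyclic loess and median scaling, a brightness filter, another prior, array weights, an adjusted p of 0.10 and leaving out arrays. Plots used matplotlib 3.10.9 (Python 3.11.15).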

Additional observations from a re-analysis of the deposited data

How the results depend on the processing

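The count of S100 probe sets that passed limma was 0 with all 6 arrays, 3 with array weights (S100a4, S100a6 and S100a9), 3 without AKR F1 replicate 2 and DBA F1 replicate 1, and 0 to 1 with single arrays left out. Array weights were 2.805 for AKR F1 replicate 1 and 0.192 for AKR F1 replicate 2, and were estimated gene by gene because the default estimate did not converge. Over all probe sets 22 passed, against 36 after quantile and 34 after cyclic loess normalization, 102 among probe sets above the median level, 3712 with array weights, 810 at an adjusted p of 0.10, 657 without both arrays and 1 to 263 with single arrays left out. The median S100 difference ran from -0.72 to -0.35 over 13 settings. Of 139 differences of S100 probe sets under these settings 131 were negative. The 8 that turned were S100a13 (0.11 after quantile and 0.09 after cyclic loess normalization, 0.12 with array weights, 0.18 without AKR F1 replicate 2 and 0.21 without both arrays), S100a8 (0.16 without AKR F1 replicate 2, 0.40 without both) and the dimmer S100a1 probe set (0.07 without both), and the cause was not tested. With single arrays left out, S100a13 ran from -0.26 to 0.18, S100a8 from -0.75 to 0.16 and the dimmer S100a1 probe set from -0.42 to -0.08. No paired analysis was possible because the labels give the crosses no shared replicate numbers. Whether the lowest S100 values lie above background could not be measured without detection calls.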
